A study of Rattus norvegicus with 16 samples.

Results

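The genes described here take up choline, turn it into phosphatidylcholine or into betaine, and remodel the product. They are 10 genes chosen by symbol, Pemt, Chka, Chkb, Pcyt1a, Pcyt2, Chpt1, Cept1, Chdh, Lpcat3 and Slc44a1, out of 17168 rows in the deposited tables. All 10 symbols were found, and all 10 genes passed the filter on low counts, as did 11162 genes in all. The RNA came from livers of Sprague Dawley rats that were 20 weeks old, either tspo -/- (knockout) or wild type. Each genotype received either a methionine-choline deficient (MCD) diet or chow for 8 weeks, from 12 weeks of age. The 4 groups were knockout on MCD, wild type on MCD, knockout on chow and wild type on chow, with 4 libraries in each and 16 in all. The feeding label and the titles give all 4 combinations and were used here, although the sentence on treatment in the labels can be read as MCD for the knockout and chow for the wild type. The organism label is rat throughout, although the series title speaks of mice. The labels do not state how the knockout was made, the sex of the animals, or that each library is a separate rat. The p-values therefore set group differences against the spread between these libraries, which need not be the spread between rats.

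Phosphatidylcholine is the main phospholipid of cell membranes, of the coat of lipoproteins and of bile. The liver makes it in the CDP-choline pathway, in which choline is phosphorylated, activated with CTP and joined to diacylglycerol. It also makes it by methylating phosphatidylethanolamine with methyl groups that derive from methionine. Choline that is not used in this way can be oxidised to betaine, which donates a methyl group to homocysteine. The MCD diet withholds choline and methionine together, and is used in rodents to induce a fatty, inflamed liver.

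On the MCD diet Pcyt1a transcripts were 1.92 times as abundant as on chow in the knockout and 1.90 times in the wild type, while Pemt, Pcyt2 and Cept1 transcripts were lower in either genotype. Chdh was called lower in the knockout and Chka in the wild type. Between the genotypes no member was called on either diet, and none had a called difference between its diet effects. A gene was called when its Benjamini-Hochberg adjusted p in edgeR's quasi-likelihood test, taken over all genes tested, was under 0.05. Levels are CPM, counts scaled to a common library size with TMM factors, which set the bulk of genes equal between libraries. Every fold is therefore relative to the bulk of genes. Library totals were 8745756 to 15762650 counts, and member counts were 51 to 4997 per library.

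Before the results, 3 libraries have to be named. On the second principal component of log2 CPM, wild-type chow library 4, the library labelled knockout on chow 4 and the library labelled knockout on MCD 1 lay at -33.0, -63.7 and -44.2, against -9.12 or more in the others. The last 2 of these also had the most Tspo RNA among libraries labelled knockout. Tspo, the targeted gene, had 4.17, 1.66, 1.02 and 1.21 CPM in knockout MCD livers and 8.78, 9.33, 7.95 and 7.63 CPM in wild-type MCD livers. On chow it had 1.14, 0.656, 1.29 and 4.42 CPM in knockout livers and 3.80, 4.37, 3.61 and 5.23 CPM in wild-type livers. The library labelled knockout on chow 4 thus lay within the wild-type chow range. Leaving the 3 libraries out was examined for every member, and the values are given beside the results they change. Because the 3 were picked from these same data, a smaller spread without them is partly by construction. Calls gained in that way are not separate support.

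The levels of each member in every library are plotted first.

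**Figure D1:**
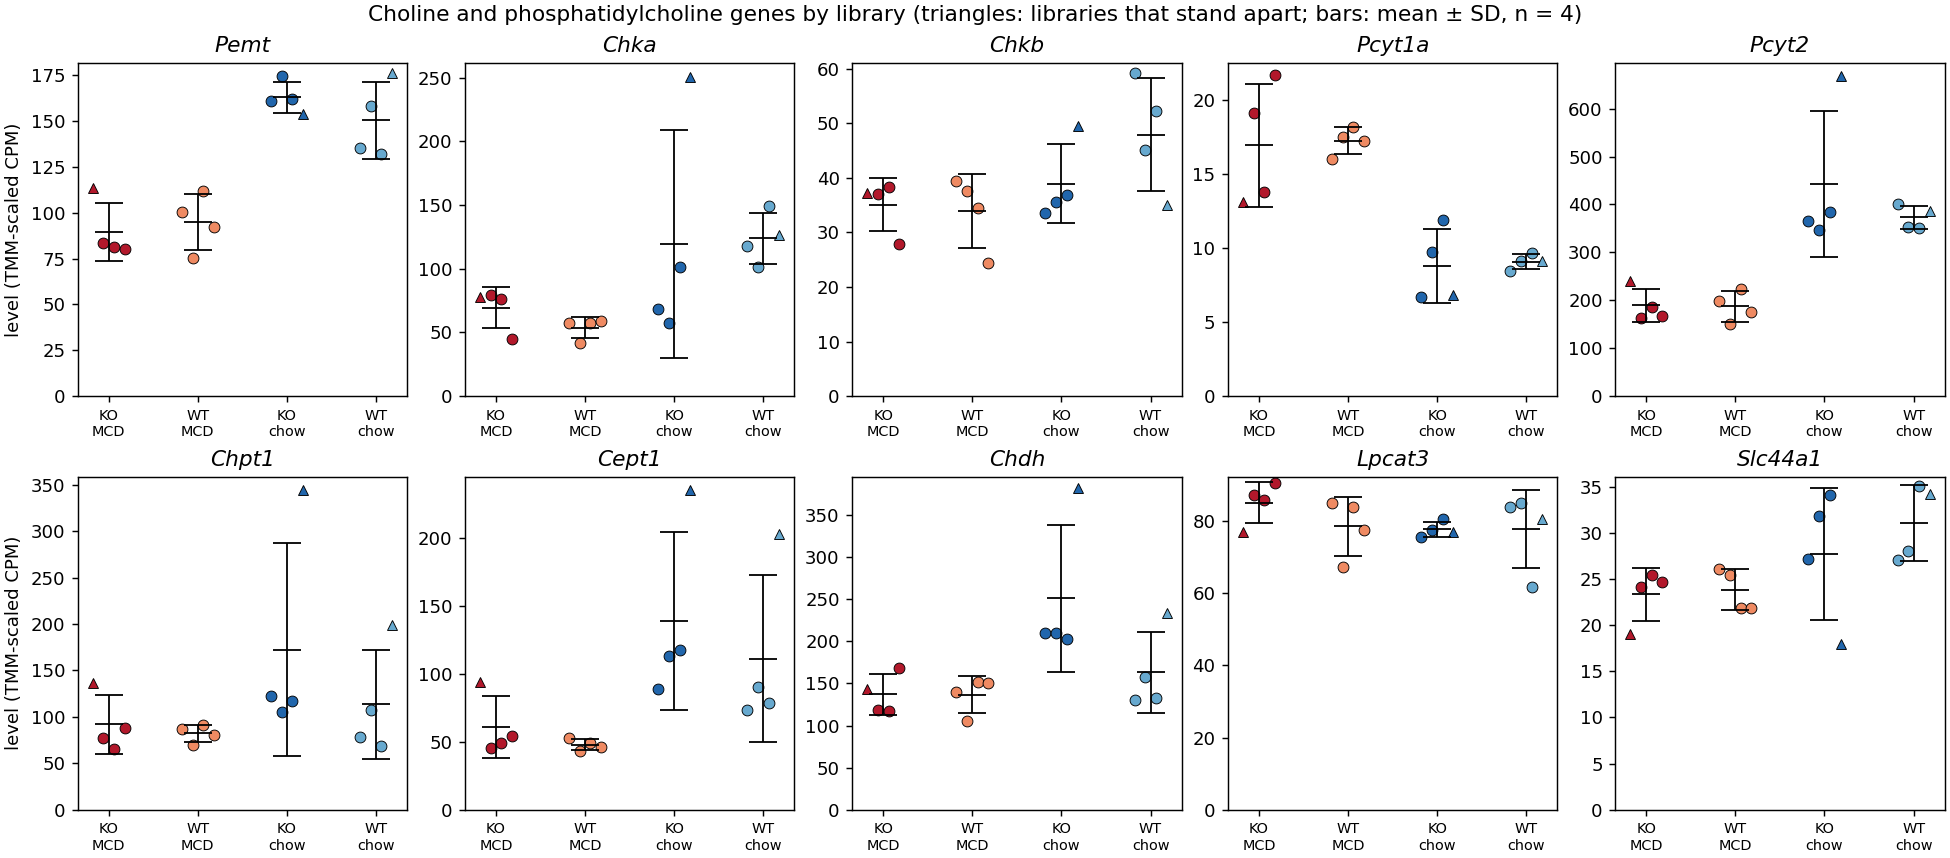
Level of each of the 10 genes (TMM-scaled CPM, vertical axis from 0) in the 4 groups, left to right knockout on MCD, wild type on MCD, knockout on chow and wild type on chow. Each point is 1 library, triangles are the 3 libraries that stood apart, and the bars are the mean ± SD of 4 libraries. Pcyt1a lies higher and Pemt and Pcyt2 lower in every MCD library than in any chow library of the same genotype, and the triangle of the knockout on chow is the highest point of that group for Chka, Chkb, Pcyt2, Chpt1, Cept1 and Chdh.

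The first comparison was MCD against chow in the knockout. Of the 10 members 5 were called, 1 higher (Pcyt1a) and 4 lower (Pemt, Pcyt2, Cept1 and Chdh). Over all 11162 genes 40.4% were called in this comparison, 21.9% higher and 18.5% lower. The median log2 fold was -0.82 over the members and 0.041 over all genes. Without the 3 libraries that stood apart 7 members were called, with Chpt1 and Slc44a1 added among the lower ones, against 51.6% of all genes (27.9% higher and 23.8% lower).

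The second comparison was MCD against chow in the wild type. Again 5 of 10 members were called, 1 higher (Pcyt1a) and 4 lower (Pemt, Pcyt2, Cept1 and Chka). Over all genes 34.1% were called, 18.2% higher and 15.9% lower. The median log2 fold was -0.48 over the members and -0.0023 over all genes. Without the 3 libraries 7 members were called, with Chkb and Slc44a1 added among the lower ones, against 50.5% of all genes (25.8% higher and 24.7% lower). The 2 groups of libraries did not overlap for 4 members in the knockout, against 31.6% of all genes (17.6% higher and 14% lower), and for 6 members in the wild type, against 38% of all genes (20.1% higher and 17.9% lower).

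With library totals in place of TMM factors, the median log2 fold of all genes was 0.77 in the knockout and 0.53 in the wild type. With TMM factors these medians were 0.041 and -0.0023. On that scale 4 members were called in the knockout, higher for Pcyt1a, Chkb and Lpcat3 and lower for Pcyt2. In the wild type 2 were called, Pcyt1a and Lpcat3, both higher. Over all genes 4514 were called in the knockout and 3809 in the wild type with TMM factors, and 6853 and 5314 with library totals. The direction of Chkb and Slc44a1 in either genotype, and of Chpt1 and Chdh in the wild type, turned positive there. TMM factors were 1.14 to 1.35 in MCD livers and 0.644 to 1.00 in chow livers.

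Some markers of cell types were called for the diet as well. Over all genes 40.4% were called in the knockout, 21.9% higher and 18.5% lower. In the wild type 34.1% were called, 18.2% higher and 15.9% lower. No marker list was tested against these shares. All 10 hepatocyte markers passed the filter, and they summed to 106334 to 129061 CPM in knockout MCD and 189803 to 244596 CPM in knockout chow livers. In the wild type they summed to 100293 to 140085 CPM on MCD and 176473 to 217283 CPM on chow. Of the 10, 7 fell in the knockout, 6 fell in the wild type and 0 rose. In bulk liver, fewer cells of a type and less RNA per cell cannot be told apart. Bile duct markers, 3 of 5 in the table, summed to 36.9 to 59.6 CPM in knockout MCD and 13.7 to 20.4 CPM in knockout chow livers, and to 43.4 to 47.6 CPM in wild-type MCD and 15.6 to 29.2 CPM in wild-type chow livers; 1 of 2 tested rose in each genotype. All 5 red blood cell markers tested fell in either genotype, to sums of 102 to 142 CPM in knockout MCD livers, against 494 to 4795 CPM in knockout chow livers, and to 84.9 to 234 CPM in wild-type MCD livers, against 1037 to 1546 CPM in wild-type chow livers.

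Of 6 macrophage markers 2 rose and 2 fell in each genotype, and their sums ran from 318 to 496 CPM in knockout MCD, 319 to 484 CPM in wild-type MCD, 281 to 489 CPM in knockout chow and 254 to 385 CPM in wild-type chow livers. Of 7 stellate cell and fibroblast markers 2 rose in the knockout and 1 in the wild type, with sums of 396 to 592 CPM in knockout MCD, 383 to 1093 CPM in wild-type MCD, 217 to 331 CPM in knockout chow and 256 to 435 CPM in wild-type chow livers. Of 4 endothelial markers 2 rose in the knockout, and 1 rose and 1 fell in the wild type. Of 3 lymphocyte markers 0 were called in the knockout and 1 fell in the wild type, with sums of at most 6.07 CPM in any library. The pancreas markers Prss1 and Pnlip were at 0 in all libraries and the 6 summed to at most 7.44 CPM; of the 2 tested 1 rose and 1 fell in each genotype. Of 4 fat markers Lep was at 0, and the 1 tested fell in the knockout and was not called in the wild type. No marker was called between the genotypes. The part of these shifts in the values of the 10 genes was not tested.

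**Figure D2:**
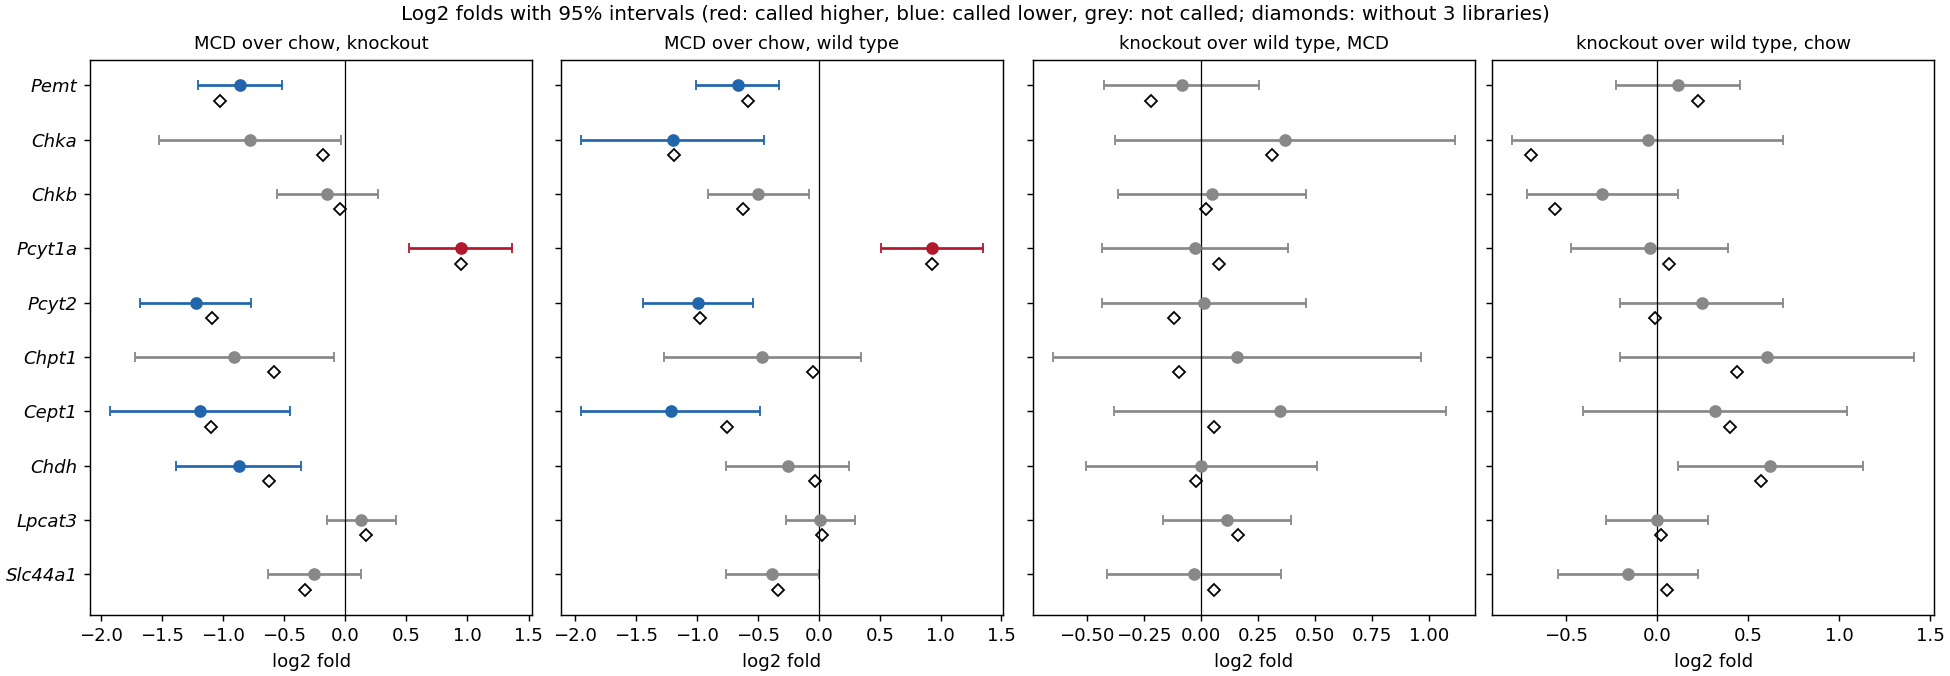
Log2 folds of the 10 genes with 95% intervals in 4 comparisons: MCD over chow in the knockout, MCD over chow in the wild type, knockout over wild type on MCD and knockout over wild type on chow. Red points were called higher, blue points lower and grey points not called; open diamonds are the log2 folds without the 3 libraries that stood apart. Pcyt1a is red and Pemt, Pcyt2 and Cept1 are blue in both diet comparisons, and no point is coloured in either genotype comparison.

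Slc44a1 is a choline transporter-like protein of the plasma membrane and of mitochondria. It had 19.1, 24.1, 25.5 and 24.7 CPM in knockout MCD livers, against 27.1, 31.8, 34.1 and 17.9 CPM in knockout chow livers. Wild-type livers had 26.0, 25.4, 21.9 and 21.9 CPM on MCD, against 27.1, 27.99, 35.1 and 34.2 CPM on chow. The wild-type groups did not overlap, whereas the knockout groups did because the library labelled knockout on chow 4 had the lowest level of all. The log2 fold was -0.25 ± 0.18 (adjusted p = 0.275) in the knockout and -0.38 ± 0.18 (adjusted p = 0.109) in the wild type, neither called. Leaving out the 3 libraries gave -0.33 ± 0.13 (adjusted p = 0.0476) in the knockout and -0.33 ± 0.12 (adjusted p = 0.0337) in the wild type, both called. In the knockout it was also called without the library labelled knockout on chow 4 alone (log2 fold -0.41, adjusted p = 0.0442).

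The choline kinases Chka and Chkb phosphorylate choline, the first step inside the cell. Chka had 77.7, 79.2, 76.1 and 45.1 CPM in knockout MCD livers, against 68.5, 57.5, 101 and 250.4 CPM in knockout chow livers. Those groups overlapped, and the chow group was wide. In the wild type Chka had 57.7, 41.4, 57.2 and 58.8 CPM on MCD, against 118, 101, 149 and 127 CPM on chow, without overlap. The fall was called in the wild type, at -1.20 ± 0.36 on the log2 scale (adjusted p = 0.0165), and not in the knockout, at -0.78 ± 0.35 (adjusted p = 0.0876). The wild-type call was lost without wild-type MCD library 2 (adjusted p = 0.0541). In the knockout Chka was called without knockout chow library 1 or 2 (log2 fold -0.97 and -1.01), while without the library labelled knockout on chow 4 its log2 fold was -0.13 (adjusted p = 0.697) and without the 3 libraries that stood apart -0.18 ± 0.24 (adjusted p = 0.547).

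Chkb had 37.1, 37.0, 38.3 and 27.9 CPM in knockout MCD livers, against 33.6, 35.5, 36.8 and 49.5 CPM in knockout chow livers, and the groups overlapped. In wild-type livers it had 39.4, 37.7, 34.4 and 24.3 CPM on MCD, against 59.3, 45.1, 52.3 and 34.9 CPM on chow. There the lowest chow library was wild-type chow library 4, which lay among the MCD values. Its log2 fold was -0.15 ± 0.20 in the knockout (adjusted p = 0.565) and -0.50 ± 0.20 in the wild type (adjusted p = 0.0590). Without the 3 libraries that stood apart it was -0.039 ± 0.17 in the knockout (adjusted p = 0.861) and -0.62 ± 0.16 in the wild type, where it was called (adjusted p = 0.00467). Without wild-type chow library 4 alone the wild-type value was -0.62 and called (adjusted p = 0.0200), and DESeq2 called it with all libraries (-0.51, adjusted p = 0.0401).

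Pcyt1a encodes the alpha form of the enzyme that activates phosphocholine with CTP, the step that usually limits the rate of the CDP-choline pathway. It had 13.1, 19.1, 13.8 and 21.8 CPM in knockout MCD livers, against 6.70, 9.73, 11.9 and 6.83 CPM in knockout chow livers. Wild-type livers had 16.0, 17.6, 18.2 and 17.3 CPM on MCD, against 8.44, 9.11, 9.68 and 9.13 CPM on chow. Every MCD library lay above every chow library in either genotype. The means were 16.96 ± 4.17 CPM in knockout MCD and 8.79 ± 2.49 CPM in knockout chow livers (SD, n = 4 each), a 1.92-fold level and a log2 fold of 0.94 ± 0.20 (adjusted p = 0.00176). The wild-type means were 17.3 ± 0.901 CPM on MCD and 9.09 ± 0.508 CPM on chow (SD, n = 4 each), a 1.90-fold level and a log2 fold of 0.93 ± 0.20 (adjusted p = 0.00232). Over the fits that left out 1 library each, the log2 fold stayed between 0.80 and 1.13 in the knockout and between 0.88 and 0.96 in the wild type. Pcyt1a was the member with the lowest counts, at 51 to 120 reads in each knockout chow library and 67 to 98 in each wild-type chow library.

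Pcyt2 encodes the matching enzyme for phosphoethanolamine and feeds the synthesis of phosphatidylethanolamine, the lipid that Pemt methylates. It had 239.6, 164, 185 and 168 CPM in knockout MCD livers, against 366, 347, 385 and 669 CPM in knockout chow livers. Wild-type livers showed 198, 151, 224 and 175 CPM on MCD, against 402, 353, 352 and 386 CPM on chow. All MCD libraries lay below all chow libraries of their genotype, and the library labelled knockout on chow 4 lay far above the other chow livers. Pcyt2 fell to 0.428 of the chow level in the knockout, a log2 fold of -1.22 ± 0.21 (adjusted p = 0.000457), the smallest adjusted p among the members in that comparison. The fall in the wild type was to 0.502 of the chow level, a log2 fold of -0.995 ± 0.21 (adjusted p = 0.00232). Leaving out the 3 libraries gave log2 folds of -1.09 ± 0.14 in the knockout and -0.98 ± 0.13 in the wild type, both called.

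Chpt1 and Cept1 catalyse the last step, the transfer of phosphocholine to diacylglycerol; Cept1 accepts phosphoethanolamine as well. Cept1 had 94.3, 45.5, 49.5 and 54.4 CPM in knockout MCD livers, against 89.2, 113, 118 and 235 CPM in knockout chow livers. The highest MCD value, in the library labelled knockout on MCD 1, exceeded the lowest chow value, so these groups overlapped. Wild-type livers had 52.8, 43.1, 49.3 and 46.2 CPM of Cept1 on MCD, against 73.3, 90.4, 78.3 and 203 CPM on chow, without overlap. The log2 fold was -1.19 ± 0.35 in the knockout (adjusted p = 0.0134) and -1.22 ± 0.35 in the wild type (adjusted p = 0.0139). Each call hung on 1 high chow library: without the library labelled knockout on chow 4 the knockout value was -0.81 (adjusted p = 0.0589), and without wild-type chow library 4 the wild-type value was -0.75 (adjusted p = 0.0584). With the 3 libraries left out together, the spread within groups was smaller, partly because these libraries were picked for standing apart. Cept1 was then called in both genotypes, at -1.10 ± 0.13 in the knockout (adjusted p = 1.45e-05) and -0.75 ± 0.12 in the wild type (adjusted p = 0.000180).

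Chpt1 had 137, 77.6, 65.3 and 87.7 CPM in knockout MCD livers, against 123, 105, 118 and 344 CPM in knockout chow livers. Wild-type values of Chpt1 were 87.2, 70.0, 90.8 and 80.8 CPM on MCD, against 78.8, 108, 68.6 and 198 CPM on chow. In each of the 3 groups that hold a library that stood apart, that library had the highest Chpt1 level. The log2 fold was -0.91 ± 0.38 in the knockout (adjusted p = 0.0687) and -0.46 ± 0.38 in the wild type (adjusted p = 0.360), neither called. With the 3 libraries left out the knockout value was -0.58 ± 0.16 and called (adjusted p = 0.00777), and the wild-type value was -0.051 ± 0.15 (adjusted p = 0.799). Chpt1 was also called in the knockout without knockout chow library 2 (log2 fold -1.08) or without the library labelled knockout on MCD 1 (-1.16), and by DESeq2 with all libraries (-0.95, adjusted p = 0.0403). Without the library labelled knockout on chow 4 its log2 fold was -0.33 (adjusted p = 0.429).

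Pemt encodes phosphatidylethanolamine N-methyltransferase, the enzyme of the methylation route and a liver gene above all. It had 113, 83.4, 81.6 and 80.1 CPM in knockout MCD livers, against 161, 174, 162 and 154 CPM in knockout chow livers. Wild-type livers had 100.4, 75.1, 112 and 92.3 CPM on MCD, against 135, 158, 132 and 176 CPM on chow. No MCD library reached a chow library of its genotype. The means were 89.6 ± 16.0 CPM in knockout MCD and 163 ± 8.49 CPM in knockout chow livers (SD, n = 4 each), with a log2 fold of -0.86 ± 0.16 (adjusted p = 0.000796). The wild-type means were 94.9 ± 15.4 CPM on MCD and 151 ± 20.9 CPM on chow (SD, n = 4 each), with a log2 fold of -0.67 ± 0.16 (adjusted p = 0.00533). Pemt fell relative to the bulk of genes; with library totals its log2 fold was -0.15 in the knockout and -0.13 in the wild type, and neither was called.

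Chdh, choline dehydrogenase of mitochondria, carries out the first oxidation of choline towards betaine. It had 144, 119, 117 and 169 CPM in knockout MCD livers, against 209, 210.3, 203 and 382 CPM in knockout chow livers, without overlap. Wild-type livers had 140.1, 105, 152 and 150.1 CPM on MCD, against 129.8, 157, 133 and 233 CPM on chow, with overlap. The log2 fold of -0.87 ± 0.24 in the knockout was called (adjusted p = 0.00952), and that of -0.26 ± 0.24 in the wild type was not (adjusted p = 0.423). The 2 diet effects differed by -0.62 ± 0.34 on the log2 scale, with an unadjusted p of 0.0867 and an adjusted p of 1.000, so a difference between the genotypes was not called. In the knockout the call was kept without the 3 libraries, at -0.62 ± 0.16 (adjusted p = 0.00535).

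Lpcat3 re-acylates lysophosphatidylcholine and gives phosphatidylcholine its polyunsaturated chains. Its log2 folds had the smallest SE of all members. Levels were 77.1 to 90.5 CPM in knockout MCD, 67.4 to 85.1 CPM in wild-type MCD, 75.6 to 80.6 CPM in knockout chow and 61.7 to 85.0 CPM in wild-type chow livers. The log2 fold of MCD over chow was 0.13 ± 0.13 in the knockout (95% interval -0.15 to 0.41; adjusted p = 0.443) and 0.013 ± 0.13 in the wild type (95% interval -0.27 to 0.29; adjusted p = 0.949). With library totals Lpcat3 was called higher, by 0.85 in the knockout and 0.53 in the wild type, shifts close to that of the median gene on that scale.

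Some of these values are less certain because of how reads are assigned. Chpt1, Cept1, Chdh and Lpcat3 overlap other protein-coding genes in the RefSeq table of assembly GRCr8, namely Gnptab and Sycp3, Dram2, Il17rb and Emg1. The library kit was stranded, but no source used here gives the strand setting of the counting. Fractional counts, a sign of reads shared with another gene or transcript, occurred for Chpt1 in 15 libraries, Lpcat3 in 14 and Slc44a1 in 16, and in none for the other members.

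Pcyt1a, Pemt, Pcyt2 and Cept1 are the members called in both genotypes, and the 250 bases before their annotated starts are shown so that the rising and the falling genes can be set side by side. Sequences are from RefSeq, build GRCr8, 5′ to 3′ on the gene's own strand, which is the minus strand for all 4. Capitals mark GC boxes (GGGCGG or its reverse complement CCGCCC) and CCAAT boxes (CCAAT or ATTGG), searched on both strands; no 2 matches overlap. The windows are chr11:81862398-81862647 for Pcyt1a, chr10:45341948-45342197 for Pemt, chr10:106394469-106394718 for Pcyt2 and chr2:196723659-196723908 for Cept1.
Pcyt1a: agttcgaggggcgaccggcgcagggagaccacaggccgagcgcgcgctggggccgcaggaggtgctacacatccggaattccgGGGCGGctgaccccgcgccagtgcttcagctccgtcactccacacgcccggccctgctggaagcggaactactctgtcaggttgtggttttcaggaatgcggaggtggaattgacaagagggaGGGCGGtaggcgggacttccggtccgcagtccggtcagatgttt
Pemt: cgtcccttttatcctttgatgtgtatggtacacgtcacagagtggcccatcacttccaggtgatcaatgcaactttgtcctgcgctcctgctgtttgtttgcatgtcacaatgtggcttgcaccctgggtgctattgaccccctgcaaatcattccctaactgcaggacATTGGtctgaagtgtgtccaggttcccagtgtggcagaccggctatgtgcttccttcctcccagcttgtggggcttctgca
Pcyt2: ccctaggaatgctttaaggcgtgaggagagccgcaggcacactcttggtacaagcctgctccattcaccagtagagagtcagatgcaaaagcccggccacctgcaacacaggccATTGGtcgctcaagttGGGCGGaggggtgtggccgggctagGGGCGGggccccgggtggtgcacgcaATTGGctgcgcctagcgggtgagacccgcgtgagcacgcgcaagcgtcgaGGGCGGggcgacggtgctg
Cept1: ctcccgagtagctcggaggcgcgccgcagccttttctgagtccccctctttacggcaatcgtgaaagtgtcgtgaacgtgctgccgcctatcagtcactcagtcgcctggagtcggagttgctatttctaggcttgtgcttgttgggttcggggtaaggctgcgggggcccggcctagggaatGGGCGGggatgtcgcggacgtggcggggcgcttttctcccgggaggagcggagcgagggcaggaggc
The Pcyt1a window, of the gene that rose, holds 2 GC boxes and 0 CCAAT boxes. Among the genes that fell, Pcyt2 holds 3 GC boxes and 2 CCAAT boxes, Cept1 holds 1 GC box and 0 CCAAT boxes, and Pemt holds 0 GC boxes and 1 CCAAT box. Over the full promoter windows of 300 bases, 9 of the 10 members held a GC box, against 33.1% of 33469 rat promoters. CCAAT occurred in 5 of 10 members, against 37.5% of promoters, and TATAAA or its reverse complement TTTATA in 1, Chkb, against 14.2%. The members' windows were 54.3% to 80.7% G and C, with Pemt the lowest, against a median of 51.7% over all promoters. The background holds all annotated promoters, whether or not their genes were tested in these livers, so it is not matched to the members in expression or in G and C. These matches describe letters in a window and are not sites of binding.

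Ratios of 2 members within a library do not depend on the scaling between libraries. Their absolute size depends on transcript length, so only their change between diets is described. The log2 ratio of Pemt to Pcyt1a counts was 2.42 ± 0.54 in knockout MCD and 4.24 ± 0.37 in knockout chow livers, and 2.44 ± 0.25 in wild-type MCD and 4.03 ± 0.21 in wild-type chow livers (SD, n = 4 each). As plain ratios these were 5.63 in knockout MCD and 19.4 in knockout chow livers, and 5.50 in wild-type MCD and 16.5 in wild-type chow livers, on average. The highest MCD library had a log2 ratio of 3.11 and the lowest chow library one of 3.76, so the diets did not overlap in either genotype. This follows from the levels of Pemt and Pcyt1a, which moved in opposite directions without overlap, and is not separate support.

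The log2 ratio of Pcyt1a to Pcyt2 counts was -3.49 ± 0.57 in knockout MCD and -5.63 ± 0.72 in knockout chow livers, and -3.42 ± 0.25 in wild-type MCD and -5.35 ± 0.17 in wild-type chow livers (SD, n = 4 each). It too was higher in every MCD library than in any chow library, with the lowest MCD value of -4.18 in the library labelled knockout on MCD 1. The log2 ratio of Chpt1 to Cept1 was 0.60 ± 0.16 in knockout MCD and 0.23 ± 0.32 in knockout chow livers, with overlap. In the wild type it was 0.78 ± 0.082 on MCD and 0.033 ± 0.19 on chow, without overlap. For Chka to Chkb the log2 ratio was 0.96 ± 0.19 in knockout MCD and 1.38 ± 0.71 in knockout chow livers, and 0.67 ± 0.47 in wild-type MCD and 1.38 ± 0.38 in wild-type chow livers, with overlap in both. These ratios were not tested. The separation of Pcyt1a to Pcyt2 also follows from the levels of these genes given above.

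**Figure D3:**
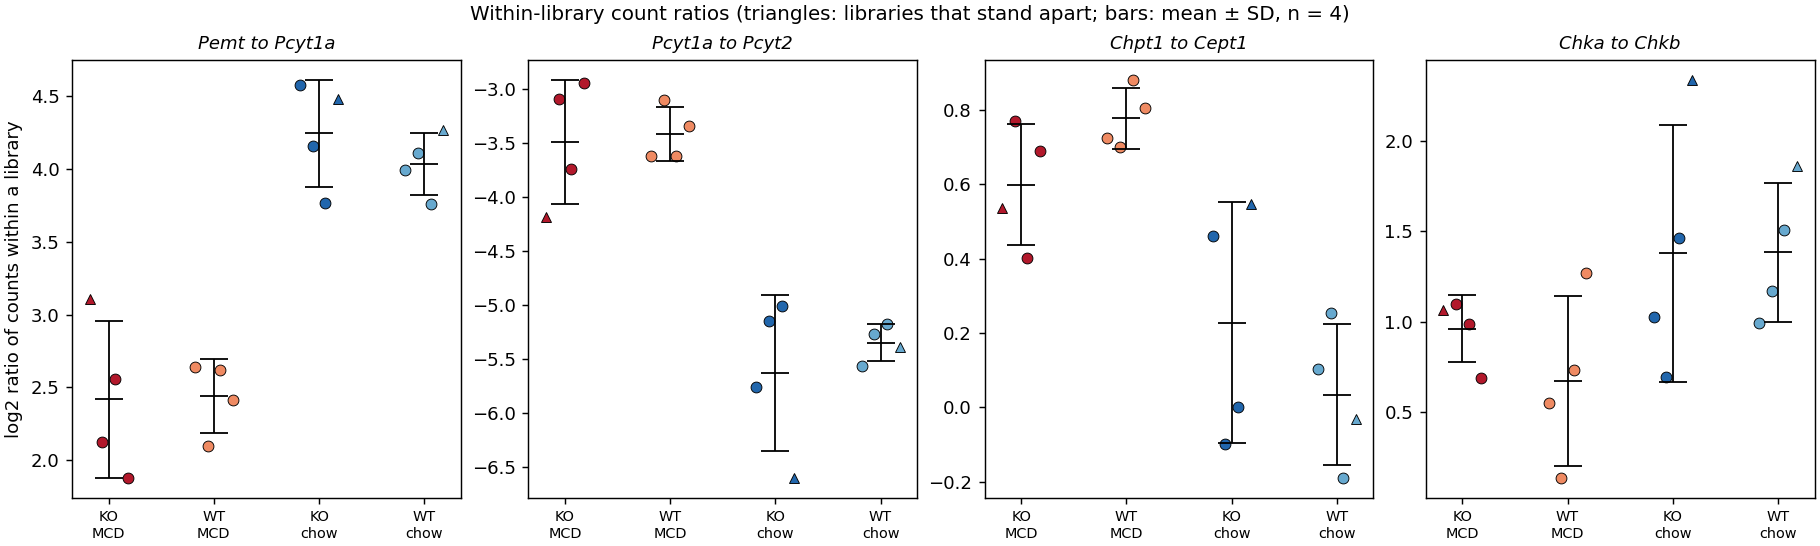
Log2 ratio of the counts of 2 genes within each library (vertical axis) for Pemt to Pcyt1a, Pcyt1a to Pcyt2, Chpt1 to Cept1 and Chka to Chkb. Groups run from knockout on MCD to wild type on chow; points are libraries, triangles the 3 that stood apart, bars the mean ± SD (n = 4). The first 2 ratios separate all MCD from all chow libraries, at 3.11 or less against 3.76 or more for Pemt to Pcyt1a. This follows from the levels of the genes themselves.

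The third comparison asked whether the knockout differed from the wild type on the MCD diet. Of the 10 members 0 were called, as were 0 of all 11162 genes (0%) by edgeR and by DESeq2. Without adjustment 0 members and 81 genes had a p under 0.05, less than the share of 0.05 awaited if no gene differed. The test was thus sparing with calls here, and 0 calls do not show that the genotypes are equal. The group means were close for the main members. Pcyt1a averaged 16.96 ± 4.17 CPM in knockout and 17.3 ± 0.901 CPM in wild-type MCD livers, a log2 fold of -0.025 ± 0.19 (95% interval -0.43 to 0.38). For Pemt the means were 89.6 ± 16.0 CPM in knockout and 94.9 ± 15.4 CPM in wild-type MCD livers, a log2 fold of -0.082 ± 0.16 (95% interval -0.42 to 0.26). Pcyt2 averaged 189 ± 34.8 CPM in knockout and 187 ± 31.4 CPM in wild-type MCD livers, with a log2 fold of 0.016 ± 0.21 (95% interval -0.43 to 0.46). The widest differences were those of Chka at 0.37 ± 0.35 and Cept1 at 0.35 ± 0.34, with 95% intervals of -0.37 to 1.12 and -0.38 to 1.08. Such intervals leave room for differences in either direction. The groups did not overlap for 0 members, against 0.797% of all genes (0.421% higher and 0.376% lower). Tspo itself had a log2 fold of -2.07 ± 0.45, an unadjusted p of 0.000291 and an adjusted p of 1.000.

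The fourth comparison asked the same on chow. Again 0 of 10 members were called, and 1 gene in all (0.00896%), LOC500124, named after its value was seen, against 23 genes with DESeq2. Without adjustment 1 member and 1152 genes had a p under 0.05. That member was Chdh, at 251 ± 87.2 CPM in knockout chow and 163 ± 48.2 CPM in wild-type chow livers (SD, n = 4 each), a log2 fold of 0.62 ± 0.24 (unadjusted p = 0.0197, adjusted p = 0.459). Chpt1 had a log2 fold of 0.60 ± 0.38 (adjusted p = 0.533), Cept1 one of 0.32 ± 0.34, Chkb one of -0.30 ± 0.20 and Pcyt2 one of 0.24 ± 0.21. The values of Pemt (0.11 ± 0.16), Chka (-0.052 ± 0.35), Pcyt1a (-0.042 ± 0.20), Lpcat3 (-0.0014 ± 0.13) and Slc44a1 (-0.16 ± 0.18) lay nearer to 0. Tspo had a log2 fold of -1.23 ± 0.49 (adjusted p = 0.461) with all libraries. The groups did not overlap on chow for 0 members, against 4.35% of all genes (1.76% higher and 2.59% lower).

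With the 3 libraries left out 516 genes were called between the genotypes on chow (4.6%, with 1.81% higher and 2.79% lower), and still 0 members. The smallest adjusted p among members was then that of Chdh, with a log2 fold of 0.57 ± 0.16 (adjusted p = 0.0588). Chkb followed at -0.56 ± 0.17 (adjusted p = 0.0719), Cept1 at 0.40 ± 0.13 (adjusted p = 0.0872) and Chka at -0.69 ± 0.24 (adjusted p = 0.106). For Chka this was a far lower value than with all libraries, since the library labelled knockout on chow 4 had 3.30 times the mean of its group mates. Pcyt2 and Cept1 changed sign on chow without that library, to -0.027 and -0.063. On MCD 1 gene (0.00891%) was called without the 3 libraries, and 0 members. The log2 fold of Tspo was then -2.68 ± 0.22 on MCD (adjusted p = 4.87e-05) and -1.92 ± 0.28 on chow (adjusted p = 0.00462), which is partly by construction, because 2 of the 3 libraries had high Tspo.

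The difference of the diet effects, knockout minus wild type, was called for 0 of 10 members and for 0 of all genes (0%), against 1 gene with DESeq2. Without adjustment 0 members and 330 genes had a p under 0.05, again less than the share of 0.05 awaited if no gene differed. It was 0.017 ± 0.28 on the log2 scale for Pcyt1a (95% interval -0.57 to 0.61), -0.20 ± 0.23 for Pemt (-0.68 to 0.28) and -0.23 ± 0.30 for Pcyt2 (-0.86 to 0.40). The widest were those of Chdh, given above, Chpt1 at -0.44 ± 0.54 and Chka at 0.42 ± 0.50. The 2 diet effects on Chka, called in the wild type and not in the knockout, were therefore not shown to differ. With the 3 libraries left out 20 genes were called in this test (0.178%, with 0.16% higher and 0.0178% lower), and 0 members. Chka then had a value of 1.00 ± 0.33 (unadjusted p = 0.00869, adjusted p = 0.160). Chdh at -0.59 ± 0.23, Chkb at 0.58 ± 0.24, Pemt at -0.44 ± 0.19 and Chpt1 at -0.53 ± 0.22 also had an unadjusted p under 0.05 there. Their adjusted p-values were 0.202, 0.225, 0.244 and 0.245.

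The 3 libraries that stood apart were also compared with their group mates for each member. They were named for standing apart over all genes tested, and the share of all genes at the ends of their groups was not counted. The counts below therefore describe these libraries and are not a result about the members. The library labelled knockout on chow 4 exceeded all 3 group mates for 6 members and fell below all 3 for 2. For Chka it had 3.30 times the mean of its mates, for Chpt1 2.99 times, for Cept1 2.21 times, for Chdh 1.84 times and for Pcyt2 1.83 times, while Slc44a1 had 0.579 times and Pemt 0.928 times. Wild-type chow library 4 exceeded all its mates for 4 members, with 2.52 times their mean for Cept1, 2.33 times for Chpt1 and 1.67 times for Chdh. The library labelled knockout on MCD 1 exceeded all its mates for 4 members, with 1.89 times their mean for Cept1 and 1.78 times for Chpt1, and fell below them for 3. Cept1 and Chpt1 were thus high in all 3.

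Genes whose pattern over the 16 libraries was most like that of the leading members were found from the root mean square difference of centred log2 CPM. Nearest to Pcyt1a were Rapgef6, an exchange factor for Rap GTPases, at 0.142, Zfyve16 at 0.181 and Spg7 at 0.183, against a median of 0.662 over all genes tested. Zfyve16, an endosomal FYVE-domain protein, averaged 15.1 ± 3.04 CPM in knockout MCD and 7.24 ± 1.24 CPM in knockout chow livers, and 14.5 ± 0.868 CPM in wild-type MCD and 7.72 ± 1.24 CPM in wild-type chow livers (SD, n = 4 each). Spg7 encodes paraplegin, a protease of mitochondria. Its means were 20.8 ± 2.36 CPM in knockout MCD and 10.3 ± 2.62 CPM in knockout chow livers. Nearest to Pcyt2 were F12, coagulation factor XII, at 0.0979, Fkbp8 at 0.108 and Agt, angiotensinogen, at 0.136, against a median of 0.746. F12 averaged 466 ± 88.0 CPM in knockout MCD and 1058 ± 367 CPM in knockout chow livers, and 416 ± 67.6 CPM in wild-type MCD and 807 ± 36.6 CPM in wild-type chow livers (SD, n = 4 each). F12 and Agt are secreted by hepatocytes. The likeness is a description, since the libraries share diet, scaling and the 3 that stood apart.

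The wider pathway was followed in a list of 59 symbols, of which 53 were found and 48 tested. In the knockout 12 rose, 10 fell and 26 were not called on MCD against chow. Over all genes 40.4% were called there, 21.9% higher and 18.5% lower. Wild-type livers had 8 that rose, 7 that fell and 33 that were not called. The share of all genes called was 34.1%, with 18.2% higher and 15.9% lower. These shares apply to each branch count below, and no branch was tested as a list. The median log2 fold over the 48 was 0.23 in the knockout and 0.18 in the wild type. Of the 48, 0 were called between the genotypes on either diet or for a difference of diet effects.

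**Figure D4:**
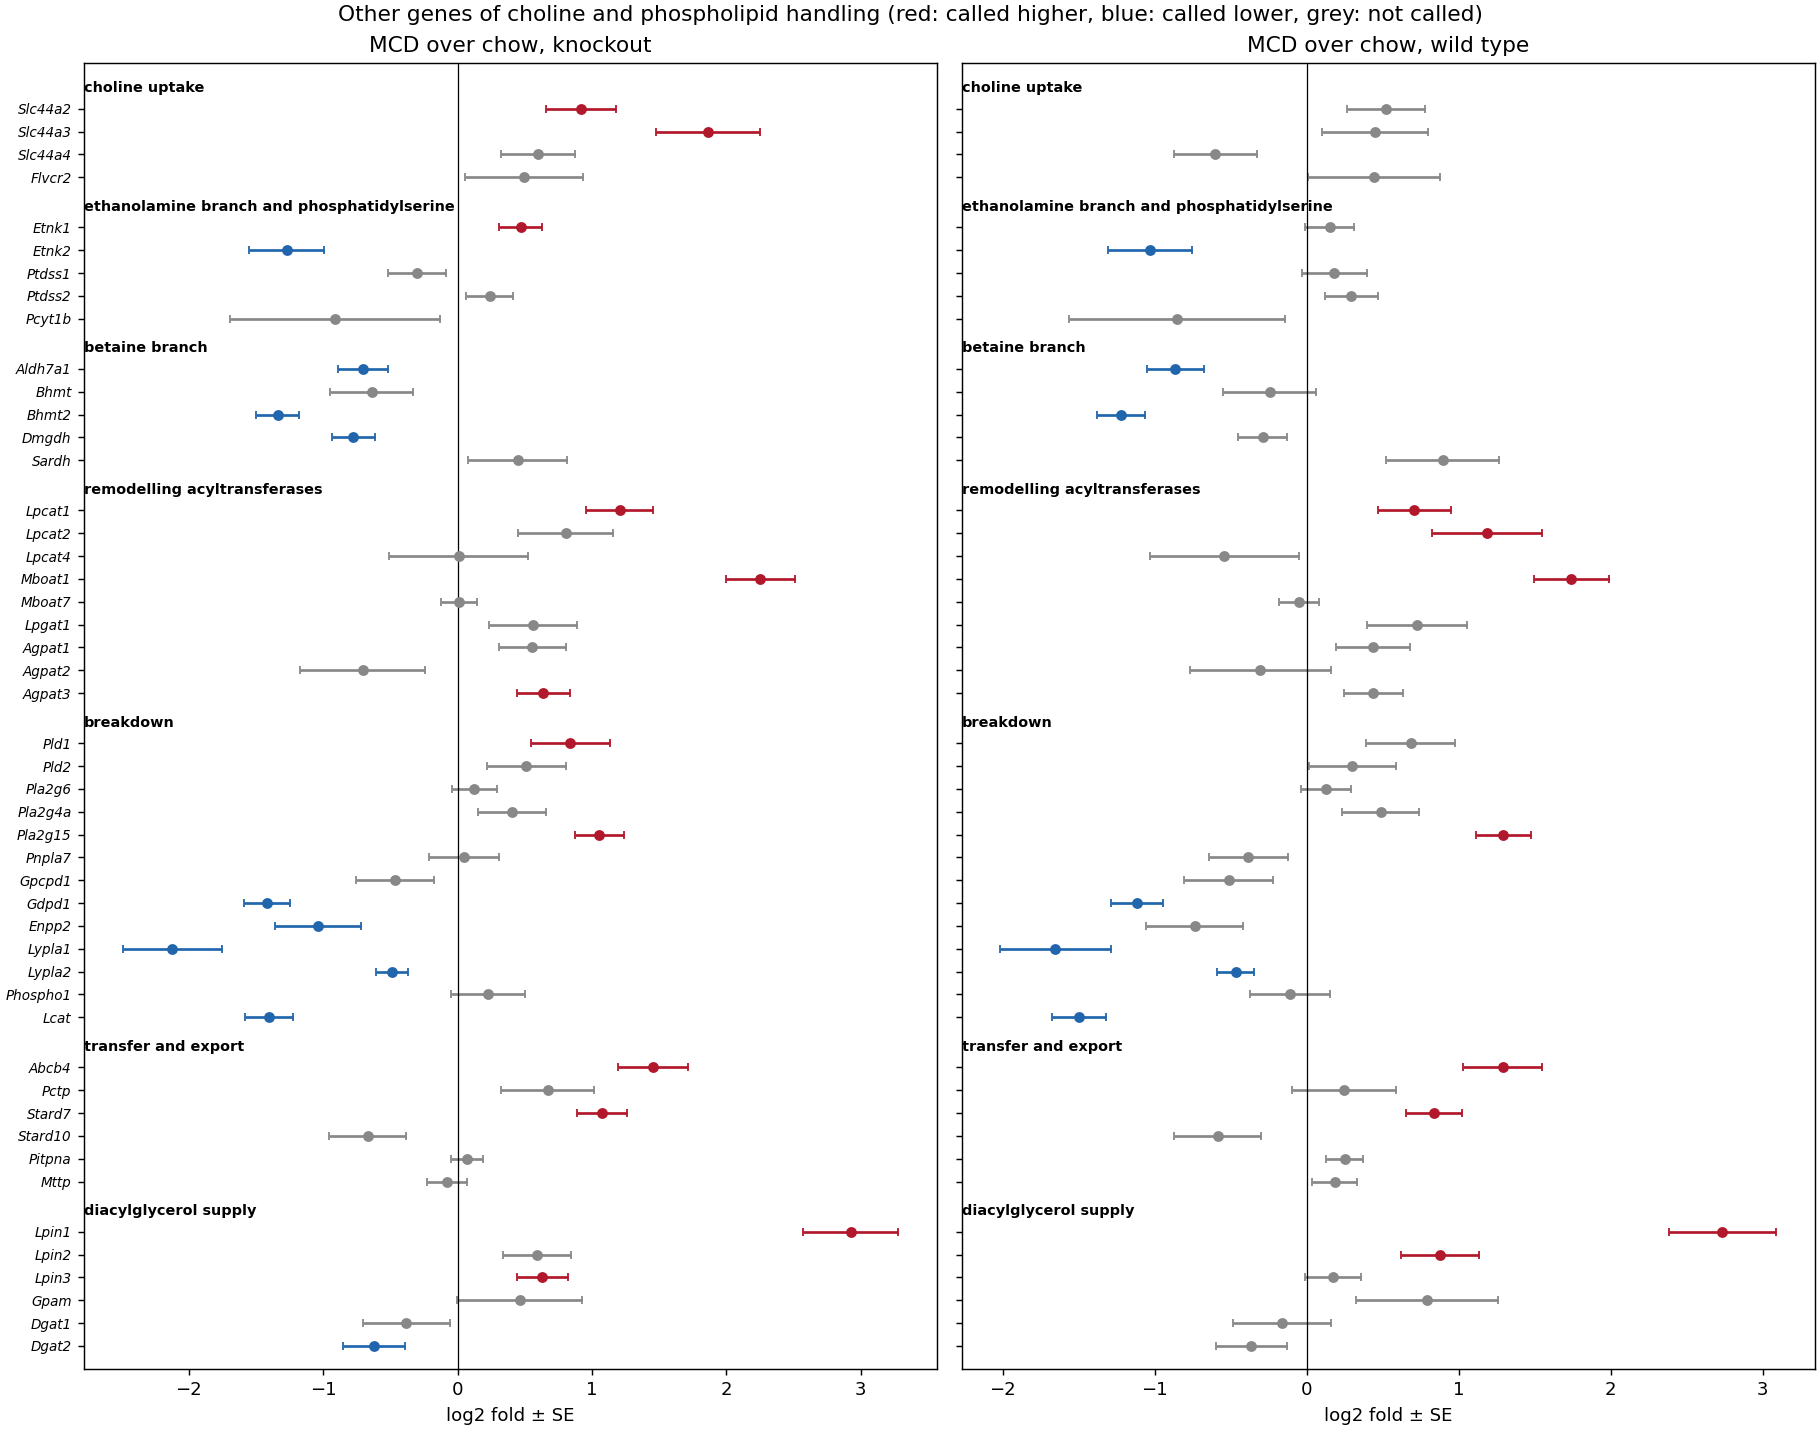
Log2 fold ± SE of MCD over chow (horizontal axis) for the 48 tested genes of the wider list, in the knockout (left) and the wild type (right), grouped by branch; the ranges of the 2 horizontal axes differ slightly. Red genes were called higher, blue lower and grey not called. In the knockout 12 are red and 10 blue, in the wild type 8 are red and 7 blue, and Lpin1 lies farthest to the right in both.

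Among uptake genes other than Slc44a1, 2 of 4 tested rose and 0 fell in the knockout, and 0 of 4 were called in the wild type. Slc44a3, a choline transporter-like protein, averaged 4.48 ± 0.221 CPM in knockout MCD and 1.205 ± 0.426 CPM in knockout chow livers, a log2 fold of 1.87 ± 0.39 (adjusted p = 0.00165). Its wild-type means were 4.88 ± 0.902 CPM on MCD and 3.65 ± 2.24 CPM on chow, a log2 fold of 0.45 ± 0.35 (adjusted p = 0.331). Counts of Slc44a3 were low on chow, at 6 to 18 reads in knockout and 14 to 50 in wild-type libraries. Slc44a2 also rose in the knockout (0.92 ± 0.26).

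In the group of the ethanolamine branch and phosphatidylserine synthesis, which also holds the second phosphocholine-activating enzyme Pcyt1b, 1 of 5 tested rose and 1 fell in the knockout, and 0 rose and 1 fell in the wild type. Etnk2, an ethanolamine kinase of liver, fell to 57.2 ± 21.1 CPM in knockout MCD livers, against 138 ± 58.5 CPM in knockout chow livers. The wild-type means were 52.9 ± 8.04 CPM on MCD, against 108 ± 27.7 CPM on chow. The log2 folds were -1.27 ± 0.28 (adjusted p = 0.00234) in the knockout and -1.03 ± 0.28 (adjusted p = 0.0101) in the wild type. The other ethanolamine kinase, Etnk1, rose in the knockout by 0.47 ± 0.16 (adjusted p = 0.0288), a call that was lost without any 1 of the library labelled knockout on chow 4 and knockout MCD libraries 2, 3 and 4.

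Of the 5 tested genes of the betaine branch 3 fell in the knockout, 2 fell in the wild type and 0 rose. Over all genes 18.5% were called lower in the knockout and 15.9% in the wild type. Bhmt2, a homocysteine methyltransferase related to the betaine-dependent Bhmt, averaged 261 ± 24.1 CPM in knockout MCD and 661 ± 68.5 CPM in knockout chow livers, a log2 fold of -1.34 ± 0.16 (adjusted p = 2.20e-05). Its wild-type means were 264 ± 35.6 CPM on MCD and 616 ± 91.5 CPM on chow, a log2 fold of -1.22 ± 0.16 (adjusted p = 5.44e-05). Aldh7a1, which can oxidise betaine aldehyde, fell in the knockout (log2 fold -0.70 ± 0.19) and in the wild type (-0.86 ± 0.19). Dmgdh, dimethylglycine dehydrogenase, fell in the knockout (-0.77 ± 0.16) and was not called in the wild type (-0.29 ± 0.16, adjusted p = 0.170). Bhmt itself was not called in the knockout (-0.64 ± 0.31, adjusted p = 0.108) or the wild type (-0.24 ± 0.31, adjusted p = 0.562). Sardh had positive values that were not called, 0.45 ± 0.37 in the knockout (adjusted p = 0.341) and 0.89 ± 0.37 in the wild type (adjusted p = 0.0723). With library totals Aldh7a1 in the knockout and Dmgdh in the wild type turned to 0.0068 and 0.25. On that scale Etnk2 was no longer called in either genotype, nor Dmgdh in the knockout or Aldh7a1 in the wild type.

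Phospholipid acyltransferases other than Lpcat3 rose or were not called, 3 of 9 tested rising in each genotype. The list sets genes of the Agpat family beside those of remodelling, and an Agpat gene was among the risers in the knockout. Mboat1, a lysophospholipid acyltransferase, averaged 11.7 ± 1.05 CPM in knockout MCD and 2.41 ± 0.920 CPM in knockout chow livers, a log2 fold of 2.25 ± 0.26 (adjusted p = 1.60e-05). The wild-type means were 12.1 ± 2.02 CPM on MCD and 3.62 ± 0.930 CPM on chow, a log2 fold of 1.74 ± 0.25 (adjusted p = 0.000106). Lpcat1, a lysophosphatidylcholine acyltransferase best known from lung, rose in the knockout (1.21 ± 0.25) and in the wild type (0.71 ± 0.24). Lpcat2 was called in the wild type (1.19 ± 0.36, adjusted p = 0.0194) and not in the knockout (0.80 ± 0.36, adjusted p = 0.0803), where limma on the deposited values called it (0.65, adjusted p = 0.0491), as did library totals (1.49). The wild-type calls were lost without 1 of several libraries, for Lpcat1 wild-type chow 1 or 4 or wild-type MCD 2 or 4, and for Lpcat2 wild-type MCD 2. Counts on chow were low. Knockout chow libraries held 8 to 29 reads of Mboat1, 14 to 20 of Lpcat1 and 7 to 29 of Lpcat2. Wild-type chow libraries held 27 to 49, 21 to 34 and 7 to 27.

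Of 13 tested breakdown genes 2 rose and 5 fell in the knockout, and 1 rose and 4 fell in the wild type. Pla2g15, the lysosomal phospholipase, rose by 1.05 ± 0.18 in the knockout and 1.29 ± 0.18 in the wild type. Pld1, which releases choline from phosphatidylcholine, rose in the knockout by 0.84 ± 0.30 (adjusted p = 0.0327). This call was lost without any 1 of knockout chow libraries 1, 2 and 3 and knockout MCD libraries 2, 3 and 4. In the wild type Pld1 had 0.69 ± 0.29 and was not called (adjusted p = 0.0801). With only the groups compared in the fit it was called in the wild type (0.69, adjusted p = 0.00474) and not in the knockout (0.83, adjusted p = 0.106). Without the 3 libraries that stood apart the wild-type value was 0.67 and called (adjusted p = 0.00148). Lcat, secreted to esterify plasma cholesterol with a chain of phosphatidylcholine, averaged 198 ± 19.3 CPM in knockout MCD and 523 ± 83.6 CPM in knockout chow livers. Wild-type Lcat averaged 219 ± 37.4 CPM on MCD and 619.5 ± 90.9 CPM on chow. Its log2 folds were -1.40 ± 0.18 in the knockout (adjusted p = 3.49e-05) and -1.50 ± 0.18 in the wild type (adjusted p = 2.50e-05). Gdpd1, a glycerophosphodiester phosphodiesterase family member, fell in the knockout (log2 fold -1.42 ± 0.17) and in the wild type (-1.11 ± 0.17).

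Transfer and export genes rose or were not called, 2 of 6 tested rising in each genotype. Abcb4, the canalicular flippase that releases phosphatidylcholine into bile, averaged 123 ± 39.3 CPM in knockout MCD and 44.7 ± 13.9 CPM in knockout chow livers. Wild-type Abcb4 averaged 128 ± 15.9 CPM on MCD and 52.4 ± 12.3 CPM on chow. The log2 folds were 1.46 ± 0.26 (adjusted p = 0.000554) in the knockout and 1.29 ± 0.26 (adjusted p = 0.00157) in the wild type. Stard7, which carries phosphatidylcholine to mitochondria, rose by 1.08 ± 0.18 in the knockout and 0.84 ± 0.18 in the wild type.

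Of 6 tested genes of diacylglycerol supply and use 2 rose and 1 fell in the knockout, and 2 rose in the wild type. Lpin1, a phosphatidate phosphatase that makes diacylglycerol, averaged 140.3 ± 64.2 CPM in knockout MCD and 18.4 ± 5.74 CPM in knockout chow livers, a log2 fold of 2.93 ± 0.35 (adjusted p = 2.44e-05). The wild-type means were 121 ± 30.5 CPM on MCD and 18.2 ± 4.69 CPM on chow, a log2 fold of 2.73 ± 0.35 (adjusted p = 4.92e-05). Lpin3 rose in the knockout (0.63 ± 0.19) and Lpin2 in the wild type (0.88 ± 0.26); Lpin2 had 0.59 ± 0.26 in the knockout with all libraries (adjusted p = 0.0730) and was called there, at 0.94, without the library labelled knockout on chow 4, and also with limma, upper quartile factors or library totals. Lpin2 in the wild type was no longer called without wild-type chow library 1 (adjusted p = 0.0533). Dgat2, which turns diacylglycerol into triglyceride, fell in the knockout (log2 fold -0.62 ± 0.23, adjusted p = 0.0424). That call was lost without any 1 of knockout chow library 2, the library labelled knockout on chow 4 and knockout MCD libraries 2, 3 and 4, and the value turned to 0.11 with library totals.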

How the data were processed

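Total liver RNA was enriched for mRNA and sequenced with a stranded kit, per the labels' protocols. The authors deposited a table of expected counts per gene; RSEM 1.2.15, Bowtie2 2.1.0 and the build rn6 stand in the submitters' processing notes, which state no roles, annotation or strand setting. Expected counts share ambiguous reads among genes, and 88.9% of them were whole numbers. The authors also deposited a normalised signal, CPM with TMM scaling; dividing it by the rounded counts gave 1 constant in every library (202017 of 202017 values, relative tolerance 1e-06). It served for an alternative fit.

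Counts were rounded and tested with edgeR 4.0.16 in R 4.3.3 (filterByExpr, TMM, 1 term per group, robust quasi-likelihood test, 12 residual degrees of freedom, biological coefficient of variation 28.0%). The SE of a log2 fold was its size divided by the root of the F statistic. Log2 CPM used a prior count of 2, and ratios added 0.5 to each count. Alternatives used limma 3.58.1, with a pseudocount of 1, and DESeq2 1.42.0, and the scripts were tested on simulated data. No 2 libraries of a group were repeats (chi-square per gene 15.3 to 384). Library totals of 8745756 to 15762650 counts limit the precision of thin genes, and PCR copies could not be told from separate molecules.

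Samples were grouped by the genotype and feeding labels. All 10 members were named, with Tspo, up to 2 called genes per branch, direction and diet comparison with the smallest p, and the 3 genes most like the leading members. Bhmt and Sardh were named after their values were seen. 1 item of the wider list is not reported here. Members and lists were chosen with earlier results of these data known. RefSeq's GRCr8 tables gave names, overlaps and promoters; the deposited tables hold no coordinates.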

Additional observations from a re-analysis of the deposited data

Results flagged for a closer look

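A library whose level lay far from the other 3 of its group was looked for with Dixon's test at the 95% level, in 44 sets of 4 libraries (11 genes in 4 groups). Chance alone flags about 1 in 20 such sets, and 9 were flagged. No explanation was tested for them.

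In the library labelled knockout on chow 4, Chdh was at 382 CPM, against 203 to 210.3 CPM in the other 3. Chpt1 there was at 344 CPM, against 105 to 123 CPM, and Pcyt2 at 669 CPM, against 347 to 385 CPM. Tspo in the same library was at 4.42 CPM, against 0.656 to 1.29 CPM. In the library labelled knockout on MCD 1, Pemt was at 113 CPM, against 80.1 to 83.4 CPM in its mates. In wild-type chow library 4, Cept1 was at 203 CPM, against 73.3 to 90.4 CPM.

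The others were low values. Chka was at 45.1 CPM in knockout MCD library 4, against 76.1 to 79.2 CPM in its mates, and Chkb was at 27.9 CPM in the same library, against 37.0 to 38.3 CPM. Chka was at 41.4 CPM in wild-type MCD library 2, against 57.2 to 58.8 CPM in its mates.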

How the results depend on the processing

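For single genes 1726 values were recomputed under other settings, and 1627 kept their direction and their side of the threshold, 42 lost a call, 38 gained one and 19 changed sign; 70 sign changes of uncalled values within 1 SE were counted as kept. Leaving out 1 library gave 5 to 7 members called in the knockout and 4 to 5 in the wild type for the diet, and 0 members between genotypes or in the difference of diet effects. Genes called ran from 3347 to 5343 and from 2831 to 3872 for the diet in the knockout and the wild type, from 0 to 1 between genotypes on MCD, from 0 to 17 on chow, and stayed at 0 in the difference of diet effects.

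Library totals, an alternative chosen after seeing the data, called 6853 genes for the diet in the knockout, 2 members in the wild type and 2 genes between genotypes on chow. With them the diet log2 fold changed sign in the knockout for Chkb (0.58), Slc44a1 (0.45), Aldh7a1 (0.0068) and Dgat2 (0.11), and in the wild type for Chkb (0.0091), Chpt1 (0.084), Chdh (0.29), Slc44a1 (0.16), Dmgdh (0.25) and Dgat2 (0.17). The median log2 fold of all genes was 0.77 and 0.53 there, and 0.15 in the knockout with upper quartile factors. The knockout log2 fold on chow turned to -0.12 for Pemt and -0.033 for Pcyt2 with library totals. Without the 3 libraries that stood apart it was -0.0099 for Pcyt2 and 0.052 for Slc44a1. Without the 2 knockout libraries of high Tspo it was -0.027 for Pcyt2 and -0.063 for Cept1. Over fits without 1 library it ran from -0.027 to 0.34 for Pcyt2 and from -0.063 to 0.78 for Cept1, and the difference of diet effects of Chpt1 ran from -0.86 to 0.14. The causes were not tested.

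Genes called between genotypes on chow numbered 23 with DESeq2, 0 with only the groups compared in the fit, 2 with limma on the deposited values, 516 without the 3 libraries and 4 without the 2. On MCD 1 was called without the 3 libraries and 1 without the 2. Both sets of libraries were picked from these data. In the difference of diet effects 1 was called with DESeq2, 20 without the 3 libraries and 1 without the 2; a fit of only the groups compared gives no value there, since it needs all groups. The shared replicate numbers gave no general pairing: 7 of 24 same-number pairs had a correlation of deviations over 0.1 (-0.38 to 0.51), and 4 of 16 libraries correlated best with their own number. The highest value, 0.51, was that of wild-type chow library 4 with the library labelled knockout on chow 4, both among the 3 that stood apart. The libraries numbered 4 come last in the sample numbering of the series, and the labels state no batch. With the replicate number as a block 5 members were called in each diet comparison and 0 elsewhere, among 4239 and 3652 genes for the diet in the knockout and the wild type, 0 genes and 1 gene between genotypes on MCD and chow, and 0 in the difference of diet effects. The block also called Lpcat2 (0.86, adjusted p = 0.0266) and Lpin2 (0.66, adjusted p = 0.0272) for the diet in the knockout, and not Dgat2 (-0.60, adjusted p = 0.0580). Depth limits Pcyt1a most among the members and Tspo altogether, at 6 to 60 reads in knockout libraries.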
